A study of Mus musculus with 12 samples.

Results

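Cytokine messenger RNAs are short-lived, and a small set of RNA-binding proteins sets how long they last. The 9 genes described here, out of 24445 genes in the count tables, encode such proteins: Zfp36, Zfp36l1, Zfp36l2, Zc3h12a, Zc3h12c, Zc3h12d, Rc3h1, Elavl1 and Arid5a. They were taken as a named list, chosen with earlier results of these data known. Each gene was represented by its RefSeq transcript with the highest total count. All 9 passed the filter on low counts in every comparison.

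The libraries came from bone marrow-derived macrophages of C57BL/6 mice, grown with L929-conditioned medium as the source of M-CSF. The mice were DOT1L wild type (WT) or carried a myeloid knockout (KO) of the histone methyltransferase DOT1L, with Lyz2 named beside the strain. WT and KO cells were each sequenced untreated and after 3 hours with 10 ng/mL of the bacterial lipopolysaccharide (LPS) of strain O111:B4, which activates the receptor TLR4. Each of these 4 groups had 3 libraries, called biological replicates in the labels, and p-values measure the spread between them. Neither the deleted exons nor the animals' age or pooling is given in the sources used here. The level of Dot1l itself (82.4 to 111 CPM, counts scaled to a common library total, in untreated WT and 85.7 to 97.8 CPM in untreated KO) therefore does not check the genotype. Lyz2 was at 5726 to 7210 CPM in untreated WT and 2613 to 3030 CPM in untreated KO, and at 6406 to 7974 and 2973 to 3437 CPM with LPS, so every KO library lay below every WT library.

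Tristetraprolin (TTP, from Zfp36) and its relatives ZFP36L1 and ZFP36L2 bind AU-rich elements in the 3′ untranslated region (UTR) and bring in the CCR4-NOT complex, which shortens the poly(A) tail. Regnase-1 (from Zc3h12a), an endonuclease, and Roquin-1 (from Rc3h1), which recruits the same deadenylase, act on stem-loops in an overlapping set of mRNAs, while HuR (from Elavl1) and ARID5A bind such mRNAs and stabilise them. In macrophages these proteins limit or prolong the output of mRNAs such as Tnf and Il6 after TLR4 is engaged.

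The 3 members of the Zfp36 family carry in their own 3′ UTRs the AU-rich heptamer that TTP is known to bind, and its sites are shown because the same 3 genes moved in opposite directions with LPS. Each line gives 30 bases 5′ to 3′ of the transcribed strand (GRCm38, GENCODE M21 models), with the heptamer TATTTAT in capitals. All 3 genes are read from the minus strand.
Zfp36, chr7:28376965-28376994: agtgggcccttTATTTATgacgactttatt
Zfp36, chr7:28376950-28376979: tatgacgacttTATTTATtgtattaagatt
Zfp36, chr7:28376925-28376954: agattttatagTATTTATatatattgggtc
Zfp36l1, chr12:80108421-80108450: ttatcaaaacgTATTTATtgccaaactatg
Zfp36l1, chr12:80108380-80108409: aattttgttcaTATTTATcgggatgacaaa
Zfp36l1, chr12:80108166-80108195: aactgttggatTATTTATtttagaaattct
Zfp36l2, chr17:84184913-84184942: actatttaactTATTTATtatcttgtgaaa
Zfp36l2, chr17:84184865-84184894: tgtccatactgTATTTATcgagtatgatga
Zfp36l2, chr17:84184679-84184708: attgtatgtaaTATTTATttcattaatttc
Elavl1, chr8:4285783-4285812: tgaaaatTATTTATTTATTTATTTATtttt

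The line for Elavl1, also on the minus strand, shows heptamers that overlap each other, and 8 matches lay in its UTR of 4218 bases. Zfp36, Zfp36l1 and Zfp36l2 had 3 matches each, in UTRs of 774, 1835 and 1822 bases. Zc3h12c and Rc3h1 had 2 matches each, and Zc3h12a, Zc3h12d and Arid5a had none. Among 11296 genes with a UTR model, 29.6% had at least 1 match and 3.75% had 3 or more, at a median UTR length of 1117 bases. A match is a description of letters, not a measured binding site.

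In the RefSeq promoter table (GRCm38.p6, 250 bases before to 50 after a start), 8 of the 9 genes had an entry. The bases before the start of Zfp36 are shown because this was the most abundant member after LPS and, among the members, only its window held a match to the CArG box of serum response factor. The 120 bases that end just before the start lie at chr7:28379229-28379348 on the minus strand, with the EGR1 motif GCGNGGGCG and the CArG box in capitals.
Zfp36 promoter: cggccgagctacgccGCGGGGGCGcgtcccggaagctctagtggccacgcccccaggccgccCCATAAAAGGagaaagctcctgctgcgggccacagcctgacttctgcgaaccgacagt

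The CArG match lay at -58 to -49 and the EGR1 match at -105 to -97 from the start. On both strands of 32851 promoter windows of the same length, 1.63% held a CArG box and 5.55% an EGR1 match. The AP-1 motif TGANTCA, present in 7.81% of windows, matched once in Zfp36l1 (which fell with LPS) and once in Rc3h1. The cyclic AMP response motif core TGACG, present in 20.8% of windows, matched in Zc3h12a and in 1 of the 2 windows of Zc3h12c. The NF-kappaB motif (4.51% of windows) and the core of the interferon-stimulated response element (3.44%) had no match in the windows of the members, so no motif searched was common to the genes that rose.

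The macrophage markers were present in all libraries, with all 8 found and a summed level of 4704 to 7959 CPM, led by Cd68. Mast cell and basophil markers summed to no more than 1.05 CPM and stromal markers to no more than 7.98 CPM. Other lists gave signal: the dendritic cell markers summed to 108 to 182 CPM, mostly Itgax, the erythroid and megakaryocyte markers to 90.3 to 256 CPM, mostly Pf4, the lymphocyte markers to 24.1 to 75.9 CPM, led by Cd4 or Lck, and the neutrophil markers to 10.7 to 43.4 CPM. Monocyte markers, all 6 found and none at 0, summed to 38.8 to 91.3 CPM in untreated WT, 60.6 to 92.3 CPM in untreated KO, 187 to 263 CPM in WT with LPS and 301 to 306 CPM in KO with LPS. The highest monocyte marker was Ccr2 in untreated cells and Vcan with LPS. In bulk RNA, fewer cells of a type and less RNA per cell cannot be told apart. WT replicate 1 stood apart in both conditions on the second principal component (4.44% of the variance), and replicate 2 was male in every group. Library totals ran from 8.64 to 13.54 M counts, so 3 counts correspond to 0.222 to 0.347 CPM.

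LPS changed the levels of these genes in both genotypes. Arid5a, Zc3h12a, Zfp36 and Zc3h12c rose at least 4.93-fold, Zfp36l1 and Zfp36l2 fell at least 5.46-fold, and Zc3h12d fell 1.84-fold in WT and 2.59-fold in KO. Rc3h1 and Elavl1 rose 1.46-fold to 1.67-fold, but by total counts alone these calls were lost, at log2 changes of -0.01 to 0.15. In each genotype 6 were called higher and 3 lower by edgeR's quasi-likelihood test at an adjusted p of 0.05, and untreated and LPS-treated libraries did not overlap for any of the 9. Over all genes, groups did not overlap in the higher direction for 27.6% in WT and 36.8% in KO, and in the lower for 30.2% and 37.3%. The background of calls was high too: of 11984 genes tested, 57.4% were called in WT (27.6% higher, 29.8% lower) and 61.2% in KO (30.3% higher, 30.9% lower). The median log2 fold change of the 9 genes was 0.67 in WT and 0.74 in KO, against -0.05 and -0.02 over all genes tested. The 2 LPS comparisons share no library but 1 estimate of the spread, and the genotype comparisons below use the same libraries again.

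**Figure D1:**
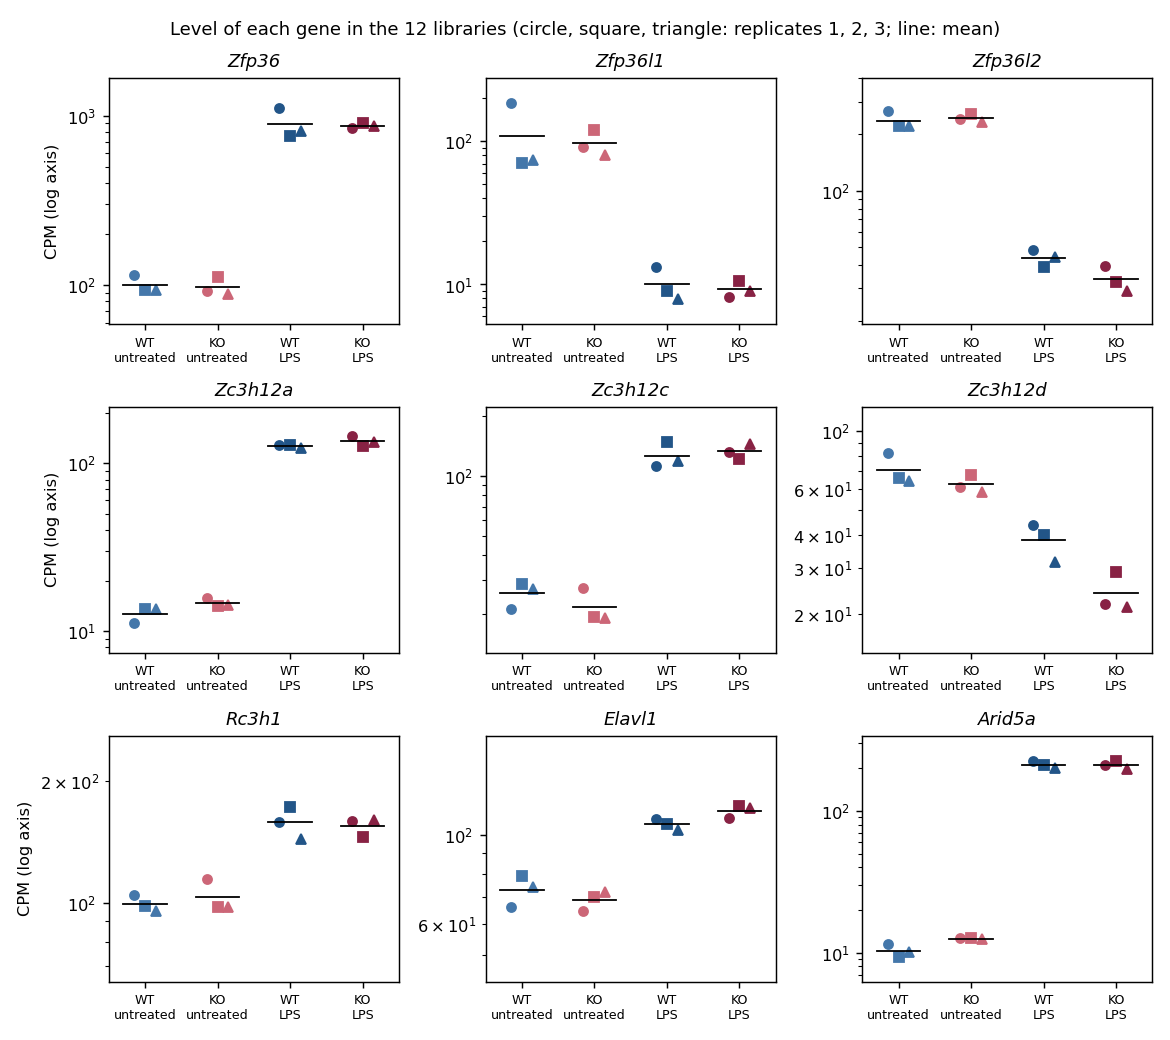
Level of each of the 9 genes in the 12 libraries, in CPM on a log axis, with the 4 groups on the x axis, replicates 1 to 3 as circle, square and triangle, and the group mean as a line. Zfp36 lies at 88.4 to 114 CPM without and 763 to 1114 CPM with LPS, while Zfp36l1 goes from 70.6 to 185 CPM down to 7.96 to 13.2 CPM.

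Zfp36 encodes TTP and lies on chromosome 7 from 28376784 to 28379228 (mm10). It stood at 114, 93.0 and 93.0 CPM in untreated WT replicates 1 to 3 and at 92.0, 111 and 88.4 CPM in untreated KO. With LPS it reached 1114, 763 and 813 CPM in WT and 842, 901 and 868 CPM in KO. Every LPS-treated library lay far above every untreated one, WT replicate 1 was the highest WT library in each condition, and the genotypes overlapped. The rise was 8.98-fold in WT (log2 3.17 ± 0.15 SE, n = 3 against 3, adjusted p = 3.95e-10 by edgeR) and 8.96-fold in KO (3.16 ± 0.15, adjusted p = 3.47e-10).

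Zfp36l1 (chromosome 12, 80107760 to 80113013) encodes a TTP relative known as a regulator of differentiation and quiescence as well as of mRNA decay. Untreated WT libraries held 185, 70.6 and 73.7 CPM and untreated KO libraries 91.6, 120.2 and 80.5 CPM. After LPS the levels were 13.2, 8.99 and 7.96 CPM in WT and 8.13, 10.6 and 9.02 CPM in KO. WT replicate 1 was above both other WT libraries before and after LPS, and above all KO libraries. The gene fell 11.1-fold in WT (log2 -3.47 ± 0.36, adjusted p = 1.92e-06 by edgeR) and 10.5-fold in KO (-3.39 ± 0.36, adjusted p = 1.67e-06), with the widest standard error of the 9 genes. Without untreated WT replicate 1 the change in WT was -2.86 and was still called by edgeR. Its log2 fold change in WT ranked 78 from the lowest among 11984 genes.

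Zfp36l2 (chromosome 17, 84183924 to 84187947), the third relative, stood at 268, 223 and 221 CPM in untreated WT and 243, 258 and 232 CPM in untreated KO. LPS left 47.9, 38.7 and 44.0 CPM in WT and 39.2, 32.5 and 28.9 CPM in KO. The conditions were far apart, and with LPS the lowest WT library lay just under the highest KO library. The fall was 5.46-fold in WT (log2 -2.45 ± 0.12, adjusted p = 7.2e-10 by edgeR) and 7.28-fold in KO (-2.86 ± 0.12, adjusted p = 1.43e-10).

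Because the genes differ in transcript length, levels were compared between genes as reads per kilobase, which is CPM divided by the transcript length in kilobases. In untreated WT the family was mixed: the median shares of its reads per kilobase were 44.7% for Zfp36l2, 37.6% for Zfp36 and 17.6% for Zfp36l1, and in untreated KO they were 45.4%, 35.1% and 20.2%. With LPS the share of Zfp36 was 96.8% to 97.2% in WT libraries and 97.2% to 97.8% in KO libraries. Zfp36l2 then held a median of 2.45% in WT and 1.76% in KO, and Zfp36l1 held 0.674% and 0.600%. The summed level of the 3 genes went from 139 to 202 per kilobase in untreated WT to 446 to 649 with LPS, and from 143 to 176 to 491 to 523 in KO. A share within 1 library does not depend on the scaling between libraries.

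**Figure D2:**
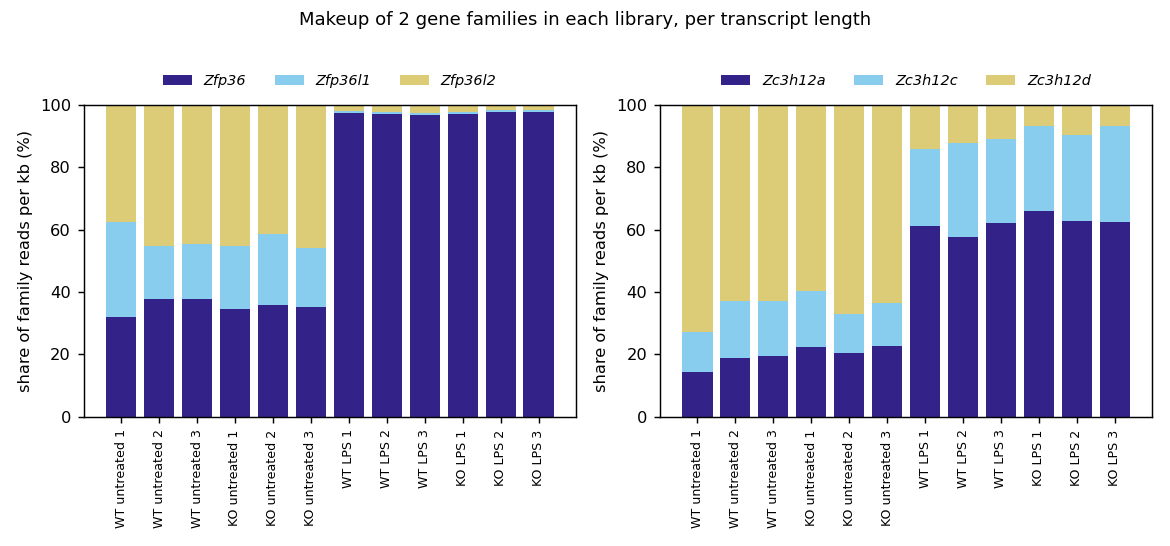
Share (%) of each gene in the summed reads per kilobase of its family, 1 bar per library, for the Zfp36 family (left) and the Zc3h12 family (right). Zfp36 makes up 31.9% to 37.8% of its family in untreated libraries and 96.8% to 97.8% with LPS, and Zc3h12d goes from 59.8% to 72.9% of its family down to 6.80% to 14.3%.

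Zc3h12a (chromosome 4, 125118414 to 125127881) encodes Regnase-1, the endonuclease that cleaves stem-loop mRNAs such as Il6. It stood at 11.1, 13.6 and 13.5 CPM in untreated WT and 15.7, 14.1 and 14.4 CPM in untreated KO, and at 128, 129 and 124 CPM in WT and 144, 127 and 135 CPM in KO with LPS. The LPS-treated libraries of both genotypes were closely spaced. The rise was 9.94-fold in WT (log2 3.31 ± 0.10, adjusted p = 3.86e-12 by edgeR) and 9.16-fold in KO (3.20 ± 0.09, adjusted p = 3.66e-12).

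Zc3h12c (chromosome 9, 52109569 to 52168730) encodes a second member of the Regnase family. Its CPM were 21.4, 28.4 and 26.9 in untreated WT, 27.1, 19.3 and 19.2 in untreated KO, 112, 148 and 118 in WT with LPS and 131, 122 and 145 in KO with LPS. It rose 4.93-fold in WT (log2 2.30 ± 0.16, adjusted p = 1.76e-08 by edgeR) and 6.05-fold in KO (2.60 ± 0.16, adjusted p = 4.3e-09). The gene body overlaps a microRNA gene, Mir6244, and the sources used here do not say whether counting used strand.

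Zc3h12d (chromosome 10, 7832323 to 7870397) encodes a Regnase family member described in lymphocytes and as a suppressor of cell growth, and was the family member that fell. Untreated libraries held 82.0, 65.8 and 64.0 CPM in WT and 61.1, 67.8 and 58.6 CPM in KO. With LPS they held 43.7, 40.0 and 31.6 CPM in WT and 21.8, 29.1 and 21.4 CPM in KO. All LPS-treated libraries were below all untreated ones, and the KO libraries with LPS were the lowest 3 of the 12. The fall was 1.84-fold in WT (log2 -0.88 ± 0.14, adjusted p = 1.36e-04 by edgeR) and 2.59-fold in KO (-1.37 ± 0.15, adjusted p = 1.9e-06). The gene body overlaps Mir5104 and Gm24726.

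Per length, Zc3h12d led the Regnase family without LPS, with a median share of 63.0% in WT and 63.4% in KO, and Zc3h12a led it with LPS, with 61.2% and 62.6%. The share of Zc3h12d with LPS was 10.8% to 14.3% in WT and 6.80% to 9.83% in KO. Zc3h12c went from a median of 17.6% to 27.1% in WT and from 13.9% to 27.6% in KO. These shares were not tested.

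Rc3h1 (chromosome 1, 160906411 to 160974976) encodes Roquin-1, which binds stem-loop decay elements. It stood at 105, 98.5 and 95.7 CPM in untreated WT, 115, 97.5 and 97.6 CPM in untreated KO, 158, 173 and 144 CPM in WT with LPS and 159.7, 146 and 161 CPM in KO with LPS. The log2 change was 0.67 ± 0.09 in WT (adjusted p = 2.73e-05 by edgeR) and 0.59 ± 0.09 in KO (adjusted p = 7.69e-05), but with libraries scaled by total counts alone it was 0.12 in WT (adjusted p = 0.239) and 0.00 in KO (adjusted p = 0.962).

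Elavl1 (chromosome 8, 4284781 to 4325140) encodes HuR, a stabiliser of AU-rich mRNAs. Its CPM were 66.0, 78.7 and 74.0 in untreated WT, 64.3, 69.9 and 71.8 in untreated KO, 109.5, 107 and 103 in WT with LPS and 110.4, 118 and 117 in KO with LPS. The log2 change was 0.54 ± 0.08 in WT (adjusted p = 5.83e-05 by edgeR) and 0.74 ± 0.08 in KO (adjusted p = 2.32e-06), but scaled by total counts alone it was -0.01 in WT (adjusted p = 0.945) and 0.15 in KO (adjusted p = 0.124). The main scaling, TMM, holds the bulk of genes level between libraries. Without it the median of all genes moved by -0.55 with LPS in WT and by -0.59 in KO, and the calls ran 1723 higher to 7621 lower in WT and 1777 to 7823 in KO, against 3309 to 3567 and 3633 to 3700 with TMM. Whether Rc3h1 and Elavl1 rose in absolute amount was therefore not settled by these counts. The other 7 genes kept their direction and their call under both scalings.

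Arid5a (chromosome 1, 36307733 to 36324037) encodes a stabiliser of Il6 and Stat3 mRNA that is known to counter Regnase-1, and had the largest rise of the 9. Untreated libraries held 11.6, 9.34 and 10.1 CPM in WT and 12.6, 12.6 and 12.4 CPM in KO. With LPS they held 226, 209.6 and 200.5 CPM in WT and 210.0, 225 and 197 CPM in KO. The rise was 20.6-fold in WT (log2 4.36 ± 0.10, adjusted p = 5.45e-13 by edgeR) and 16.8-fold in KO (4.07 ± 0.10, adjusted p = 6.4e-13), and only 2.12% of genes in WT had a larger log2 fold change.

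**Figure D3:**
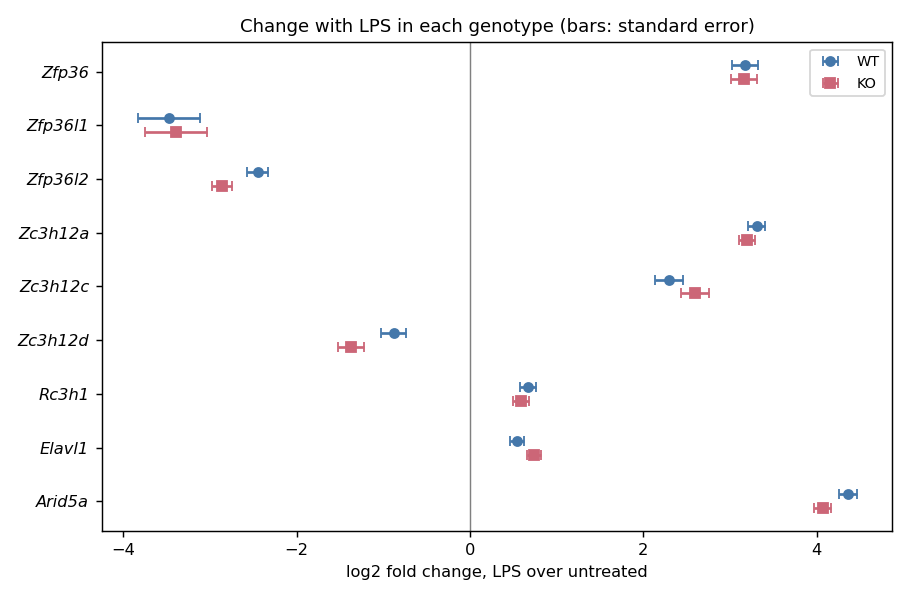
Log2 fold change with LPS over untreated cells (x axis) for the 9 genes (y axis) in WT (circles) and KO (squares), with bars of 1 standard error. Arid5a is farthest to the right at 4.36 in WT and Zfp36l1 farthest to the left at -3.47, and each gene has the same sign in both genotypes under this scaling.

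The order of the genes per length turned over with LPS. In untreated WT it ran Zfp36l2 (67.1 reads per kilobase), Zfp36 (56.6), Zfp36l1 (36.7), Zc3h12d (17.2), Elavl1 (12.1), Rc3h1 (9.04), Zc3h12a (4.53), Zc3h12c (4.16) and Arid5a (1.78). Across libraries the ranges of Zfp36l2 and Zfp36, of Zfp36 and Zfp36l1, and of Zc3h12a and Zc3h12c overlapped. Within each untreated WT library the order of these pairs held. Untreated KO had the same order with no overlap between neighbours. With LPS the order in WT was Zfp36 (508), Zc3h12a (45.3), Arid5a (36.6), Zc3h12c (20.6), Elavl1 (17.6), Rc3h1 (14.4), Zfp36l2 (12.3), Zc3h12d (9.39) and Zfp36l1 (3.36), with only Rc3h1 and Zfp36l2 overlapping. KO with LPS had that order again, from 493 for Zfp36 to 3.10 for Zfp36l1. In each LPS-treated WT library Rc3h1 still lay above Zfp36l2. Arid5a thus went from the lowest of the 9 to the third, and Zfp36l1 from the third to the lowest.

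Between genotypes, edgeR's test with the main settings called none of the 9 genes, without or with LPS, while Zc3h12d with LPS was called in 4 of 17 alternatives. In untreated cells the log2 differences, KO over WT, ran from -0.20 ± 0.17 for Zc3h12c to 0.30 ± 0.13 for Arid5a, with a median of -0.02. By edgeR 0 of 9 were called and 1 had an unadjusted p under 0.05 (DESeq2 and limma-voom also called 0 of 9), on a background of 0.0% of 11622 genes called and 7.24% with an unadjusted p under 0.05. DESeq2 called 49 genes there, and leaving out WT replicate 1 gave edgeR 749 calls, with the 9 genes still uncalled.

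Arid5a was the gene under 0.05 (unadjusted p = 0.0415, adjusted p = 0.661 by edgeR). Its untreated KO libraries, at 12.4 to 12.6 CPM, all lay above the WT libraries at 9.34 to 11.6 CPM, a 1.23-fold difference. Zc3h12a likewise lay higher in every untreated KO library (14.1 to 15.7 CPM) than in WT (11.1 to 13.6 CPM), at 0.23 ± 0.12 and an adjusted p of 0.786. Of the 9 genes 2 thus did not overlap in the higher direction and 0 in the lower, where 6.75% and 8.55% of all genes did so. Zfp36l1 depended on 1 library: its log2 difference of -0.15 ± 0.36 became 0.45 (adjusted p = 0.28) without WT replicate 1, the library with 185 CPM.

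With LPS the differences, KO over WT, ran from -0.68 ± 0.15 for Zc3h12d to 0.10 ± 0.08 for Elavl1, with a median of -0.04. By edgeR 0 of 9 were called against a background of 1.13% of 11264 genes, DESeq2 called 1 and limma-voom 0. An unadjusted p under 0.05 was found for 2 of the 9 and for 13.8% of all genes. Zfp36 (-0.05 ± 0.13), Zc3h12a (0.08 ± 0.08), Zc3h12c (0.06 ± 0.11), Rc3h1 (-0.04 ± 0.09), Zfp36l1 (-0.10 ± 0.20) and Arid5a (-0.02 ± 0.09) differed by about 1 standard error or less, and their genotypes overlapped. Without WT replicate 1, Zfp36 stood at 0.13 and Zfp36l1 at 0.11, both uncalled.

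Zc3h12d stood closest to the threshold. Its KO libraries with LPS (21.4 to 29.1 CPM) all lay below its WT libraries with LPS (31.6 to 43.7 CPM), a 1.60-fold lower level with an unadjusted p of 9.14e-04 and an adjusted p of 0.0602 by edgeR. The log2 difference ranked 54 from the lowest among 11264 genes. The difference stayed negative in all 17 alternative analyses, from -0.83 to -0.54, and passed the threshold in 4 of them: DESeq2 (adjusted p = 0.00555), no filter on low counts (0.00937), scaling by total counts (0.0467) and leaving out WT replicate 1 with LPS (-0.58, adjusted p = 0.0236). Over all 17 the adjusted p ran from 0.00555 to 0.289. Of the 9 genes 1 did not overlap in the lower direction (Zc3h12d) and 1 in the higher (Elavl1, adjusted p = 0.579), where 9.19% and 11.1% of all genes did so. With LPS the summed monocyte markers given above were higher in every KO library, with Vcan highest (mean 167 CPM in WT and 238 CPM in KO). So were the erythroid and megakaryocyte markers (all 7 found, 3 at 0 counts in WT and 4 in KO, 135 to 143 CPM in WT, 179 to 256 CPM in KO). Pf4 was highest there (mean 137 and 206 CPM), and 5 of the 7 stayed under 1 CPM in each genotype. Untreated libraries were apart for this sum too, at 90.3 to 102 CPM in WT and 136 to 160 CPM in KO. The untreated monocyte and lymphocyte sums overlapped between genotypes, as did untreated Zc3h12d. The lymphocyte markers (all 9 found, 3 at 0 counts in WT and 2 in KO) summed to 48.0 to 61.3 CPM in WT and 61.0 to 75.9 CPM in KO. Of these 9, 7 stayed under 1 CPM, and the highest was Cd4 in WT (mean 26.8 CPM) and Lck in KO (40.8 CPM). Each sum was thus carried by few genes. The part of these marker differences in the level of Zc3h12d was not tested.

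Zfp36l2 was lower in KO with LPS by a log2 difference of -0.38 ± 0.13 (unadjusted p = 0.0144, adjusted p = 0.224 by edgeR), with 1 KO library inside the WT range. Only 3.82% of genes had a lower difference.

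**Figure D4:**
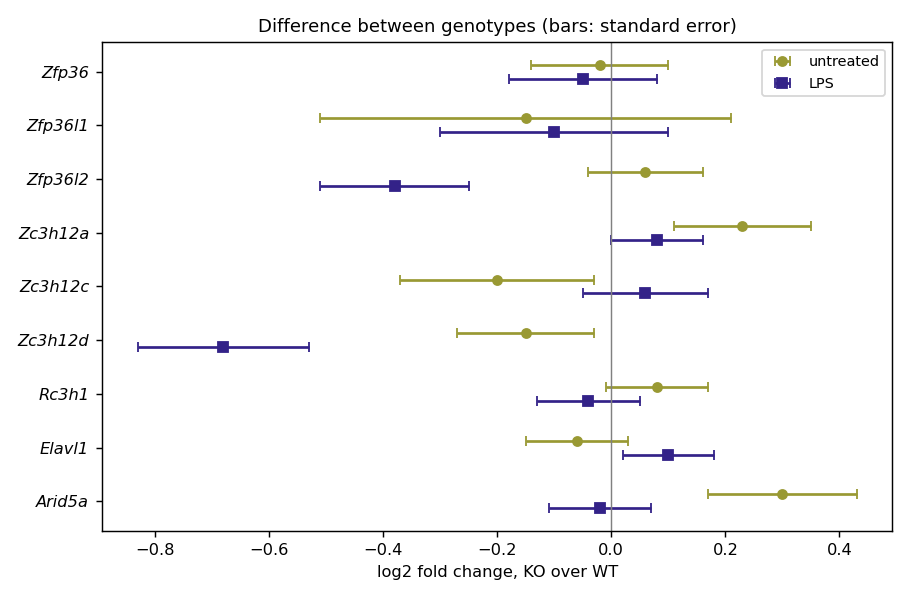
Log2 fold change of KO over WT (x axis) for the 9 genes (y axis) in untreated cells (circles) and with LPS (squares), with bars of 1 standard error. Zc3h12d (-0.68) and Zfp36l2 (-0.38) with LPS lie farthest below 0 and untreated Arid5a (0.30) farthest above it, and none passes an adjusted p of 0.05.

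The difference between genotypes in the LPS response was tested as an interaction. By edgeR 0 of the 9 genes passed, as did 0.0% of 11984 genes, and 3 had an unadjusted p under 0.05, as did 2.4% of all genes (2 each by DESeq2 and limma-voom, which also called 0). In edgeR's test Zc3h12d had an interaction of -0.50 ± 0.20 (unadjusted p = 0.0302, adjusted p = 1) and Zfp36l2 one of -0.41 ± 0.17 (unadjusted p = 0.0273, adjusted p = 1). Arid5a had -0.29 ± 0.13 (unadjusted p = 0.0434, adjusted p = 1 by edgeR). The estimated falls of Zc3h12d and Zfp36l2 were deeper, and the estimated rise of Arid5a smaller, in KO, and none of these differences passed the adjustment. Their signs held in all 22 alternatives, with no adjusted p under 0.147. Zfp36 had an interaction of -0.00 ± 0.20. These tests leave out the pairing of untreated and LPS libraries. With a replicate block on the pairs, 5 of the 9 genes and 904 of 11984 had an unadjusted p under 0.05 by edgeR. None of them passed the adjustment there either.

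The genes whose pattern over the 12 libraries was most like each member were found by the root mean square difference of log2 CPM, each gene centred on its own mean, among 9533 candidates. For Zfp36 these were Lcp2 (0.08) and Casp4 (0.09), for Zc3h12a Csf1 and Klf8 (0.10 each), for Arid5a Stat5a and Cd83 (0.13 each), and for Zc3h12c Dcp2 (0.13) and Naa25 (0.15). For Zfp36l1 they were Gadd45a (0.23) and Egr3 (0.30), and for Zfp36l2 Cblb (0.13) and Zfp704 (0.14). Epb41 (0.16) and Zmiz1 (0.17) were nearest to Zc3h12d, Cep192 and Mycbp2 (0.06 each) to Rc3h1, and Gnb1 (0.06) and Serhl (0.07) to Elavl1. Zfp36l1 had the most distant neighbours of the 9. These likenesses rest mainly on the LPS response that the libraries share and are given as a description.

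The machinery that the 9 proteins call on was taken as further lists. For the lists here and below, the background with LPS was 27.6% of all genes called higher and 29.8% lower in WT. In KO it was 30.3% and 30.9%. Whether a list departed from this background was not tested. Dcp2, the catalytic subunit of the decapping enzyme, rose by 2.36 ± 0.13 in WT and 2.54 ± 0.13 in KO on the log2 scale, with its partner Dcp1a (1.63 and 1.72) and the 5′ exonuclease Xrn1 (1.20 and 1.24). Of 19 decapping and 5′ decay genes tested, 6 rose and 4 fell in WT and 7 rose and 2 fell in KO. Of 18 deadenylation genes tested, 4 rose and 9 fell in WT and 4 rose and 10 fell in KO. By smallest p the named ones were Tob1 (-1.57 ± 0.18 and -1.59 ± 0.17), an adaptor of CCR4-NOT, Pan2 (-0.92 and -0.94), Tob2 and Cnot7. Tob2, named in WT, fell by -0.79 in both genotypes. Cnot7, a catalytic subunit named in KO, rose by 0.52 in WT and 0.67 ± 0.08 in KO. Total-count scaling lost its call in KO at 0.08. Naming in 1 genotype, here and below, follows the smallest p there and is no test of a difference between genotypes. Among 17 exosome and 3′ decay genes, none rose and 5 fell in WT, while 2 rose and 3 fell in KO. Exosc6 was lower in both (-1.02 and -0.73), Exosc7 (-0.86) and Exosc4 (-0.39) were named in WT, and Dis3l (-0.48) and Exosc9 (0.19, but -0.40 by total counts) in KO. Some of these calls were lost under other settings. Exosc4 lost its call by DESeq2 (adjusted p = 0.0904), without a filter (0.0651) and in most settings that left out libraries, Exosc9 without a filter (0.097) and in all settings that left out libraries, and Exosc6 in KO without replicate 2 of every group (0.0721).

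Of 16 other AU-rich element and stem-loop binding proteins tested out of 21, 9 rose and 3 fell in WT and 11 rose and 4 fell in KO. They included N4bp1, a nuclease related to Regnase-1 (2.74 and 2.69), the translational regulator Cpeb4 (1.76 and 1.91) and Hnrnpab (0.51 and 0.49, but -0.04 and -0.10 by total counts). A list of kinases, phosphatases and proteases that act on these proteins also held Bcl10, Tank, Btrc and Upf1. Of its 18 genes, 13 rose and 1 fell in WT and 14 rose and 2 fell in KO. Malt1, the protease that cleaves Regnase-1 and Roquin, rose by 3.41 ± 0.14 in WT and 3.69 ± 0.14 in KO, Mapkapk2, the kinase that phosphorylates TTP, by 2.62 and 2.65, and Ikbke by 2.32 and 2.31. Of 9 genes listed as translational and other partners of TTP, 4 rose and 1 fell in WT and 5 rose and 1 fell in KO. Gigyf1, which represses cap-dependent translation with TTP, fell (-0.87 and -1.07). Ywhaz, a 14-3-3 protein, rose (0.82 and 0.80, the latter not called by total counts), as did Sh3kbp1 (0.80 in both, not called by total counts).

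The counts of these lists depended on the scaling as the background did. By total counts, none of the deadenylation genes rose and 15 fell in each genotype, and all 17 exosome genes fell. Decapping genes then split 4 higher to 13 lower in WT and 4 to 11 in KO, the other binding proteins 2 to 10 in each, the kinases and proteases 7 to 4 and 9 to 4, and the translational partners 1 to 6 and 0 to 4. The rises of Dcp2, Dcp1a, Xrn1, N4bp1, Cpeb4, Malt1, Mapkapk2 and Ikbke and the falls of Tob1, Pan2 and Gigyf1 were called under both scalings. With TMM the list medians in WT and KO were -0.20 and -0.23 for deadenylation, 0.11 and 0.19 for decapping, -0.14 and -0.00 for the exosome, 0.28 and 0.29 for the other binding proteins, 0.58 and 0.77 for the kinases and proteases and 0.23 and 0.35 for the translational partners.

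**Figure D5:**
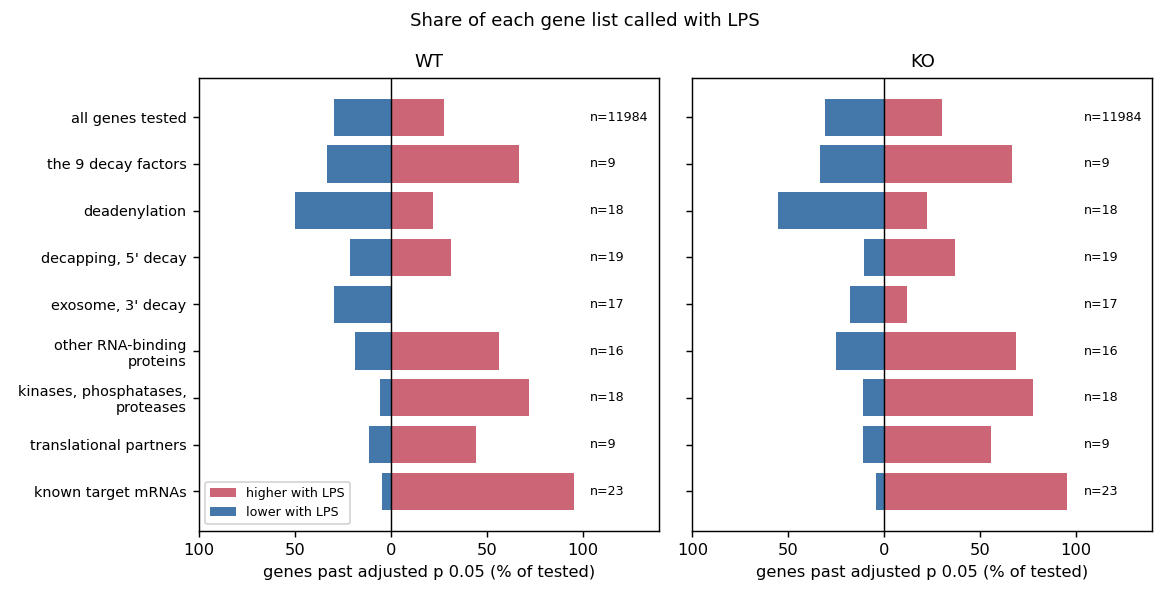
Percent of tested genes called higher (right, red) or lower (left, blue) with LPS in WT and KO, for all genes, the 9 decay factors and 7 related lists (y axis), with the number tested (n) at the right and TMM scaling throughout. The known target mRNAs, some tested only through their LPS libraries, are nearly all to the right (22 of 23). The deadenylation list leans left (9 of 18 lower in WT, against 29.8% of all genes).

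The mRNAs on which these proteins are known to act were a list of inflammatory genes, so their direction with LPS was set by how the list was built. Only 16 of the 26 passed the low-count filter on untreated libraries. Some of those tested with LPS thus passed only through their LPS libraries, so the filter fixed their rise. Of 23 tested out of 26, 22 rose and 1 fell in each genotype, Plk3 being the exception (-2.76 in WT and -3.00 in KO), named after its value was seen. The median log2 change was 4.74 in WT and 5.08 in KO. With genes at 3 or fewer untreated counts set to a floor of 3 counts over the group, it was 4.74 and 5.04. Nfkbiz, a target of Regnase-1, rose by 6.60 and 6.63 and Ptgs2 by 9.24 and 9.71. Il12b had 3 counts summed over the untreated WT libraries and 11 over the untreated KO libraries, against 8988 and 13417 with LPS. By total counts 21 of the 23 rose and 1 fell in each genotype.

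Between genotypes none of the 112 list genes tested in untreated cells was called by edgeR, DESeq2 or limma-voom, and 8 had an unadjusted p under 0.05 by edgeR. The most abundant gene of each list differed by -0.35 ± 0.32 (Ccl2) to 0.11 ± 0.12 (Mapkapk2) on the log2 scale. Without WT replicate 1, Ccl2 was lower in KO by edgeR (-0.69, adjusted p = 0.000129). With LPS 3 of 118 were called by edgeR and limma-voom and 5 by DESeq2, and all of these were targets, higher in KO. Over all genes edgeR called 113 higher (1.0%) and 14 lower (0.124%) in KO, so higher was also the common direction of the background. Il10, the anti-inflammatory cytokine, stood at 13.8 ± 1.70 CPM in WT and 25.9 ± 2.40 CPM in KO with LPS (SD, n = 3 each), a log2 difference of 0.90 ± 0.13 SE (adjusted p = 0.00874 by edgeR). Ier3, an early response gene with an AU-rich UTR, differed by 0.60 ± 0.09 (adjusted p = 0.00874). Cxcl3, a neutrophil chemokine below the level set for named genes and picked after its value was seen, differed by 0.91 ± 0.17 (adjusted p = 0.0385). Leaving out KO replicate 3 put all 3 above the threshold (adjusted p = 0.0614, 0.0704 and 0.185), as did leaving out WT replicate 3 for Il10 (0.0948) and Cxcl3 (0.191) and KO replicate 1 for Ier3 (0.0565) and Cxcl3 (0.139). Without replicate 2 of every group Il10 (0.0975) and Ier3 (0.103) were not called, nor was Cxcl3 in a fit on all 12 libraries (0.0631), on log2(RPKM + 1) values (0.0977) or with a replicate block (0.90, adjusted p = 0.111). For the interaction 0 of 119 list genes passed by any of the 3 tools, with 0 at an unadjusted p under 0.05 by edgeR and DESeq2 and 1 by limma-voom.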

How the data were processed

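The authors deposited 1 table of whole-number read counts and 1 of RPKM values per condition, each with 35745 RefSeq transcripts as rows. Per the submitters' processing notes, reads were handled with STAR 2.5.2b, SAMtools 1.3.1 and mm10. How reads were counted, with which annotation and whether by strand is not given in the sources used here. No normalization was applied to the deposited counts. The authors' RPKM values served for an alternative fit and, with the counts, for transcript lengths.

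Transcripts were named by a RefSeq table of GRCm38.p6 (35440) or GENCODE M21 (188), and 117 unnamed ones (0.259% to 0.738% of a library's counts) were left out. Of 24445 genes, 6089 had several transcripts, whose counts repeat shared reads, so 1 transcript per gene was used. In Arid5a, with 6 transcripts, the lowest held 95.2% of the counts of the highest. No per-sample column was left unmapped (0).

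Genotypes were compared within a condition on 6 libraries, and LPS responses and the interaction on all 12 libraries, with edgeR 4.0.16 (filterByExpr, TMM, robust quasi-likelihood F test, Benjamini-Hochberg over all genes tested, threshold 0.05; R 4.3.3). Adjusted p of single genes are from edgeR where no other tool is given. Numbers after ± are standard errors, the size of the log2 change over the square root of F, unless called SD. CPM use the TMM scale of all 12 libraries. With 3 libraries against 3, an exact two-sided permutation p cannot go below 0.1, so none was used. Floors cover counting error only. The procedure was also run on simulated counts with the same spread for every gene and no outlying library. That run does not cover the scaling with LPS or the outlying WT replicate 1.

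Alternatives were other scalings (DESeq2 size factors, total counts), no filter or a stricter one, DESeq2 1.42.0, limma 3.58.1 voom, limma on log2(RPKM + 1), the lowest transcript per gene, other sets of libraries, each library left out and a replicate block. Same-numbered untreated and LPS libraries of a genotype deviated together (correlations of 0.20 to 0.57 in all 6 pairs), so these numbers were taken to pair libraries. The pairs entered only the replicate block. The main tests used the group only, so their standard errors and p-values leave the pairing out. Between genotypes some correlations were under 0.1 (-0.03 to 0.26), so there the numbers were not taken as pairs. No 2 libraries agreed within sampling noise.

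All 9 members are named in each comparison. Of a list, up to 3 called genes with the smallest p are named if their log2 CPM averaged 2 or more, or the most abundant gene where none was called. The 2 most alike genes are named per member. The members, lists and tests were chosen with earlier results of these data known.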

Additional observations from a re-analysis of the deposited data

How the results depend on the processing

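Of the alternatives for single members, 788 of 801 were counted as unchanged in direction and call. An uncalled value that changed sign was counted among these if its shift was within its standard error. Shifts of an uncalled value without a change of sign were counted among these whatever their size. Untreated Zfp36l1 between genotypes, for example, ran from -0.56 to 0.45 over its alternatives. The exceptions were Rc3h1 and Elavl1 with LPS and Zc3h12d between genotypes, given above, and larger sign changes of uncalled values. Scaling by total counts turned Elavl1 to -0.01 and Hnrnpab to -0.04 in WT, and Rc3h1 to 0.00, Cep192 to -0.03, Exosc9 to -0.40 and Hnrnpab to -0.10 in KO; 7 members were then called with LPS in each genotype, and the cause was not tested. Between untreated genotypes the main analysis called 0 genes, total counts 1, no filter 9, DESeq2 49, a fit on all 12 libraries 27, and leaving out 1 replicate 0 to 749 (749 without WT replicate 1). With LPS it called 127, no filter 276, DESeq2 265, limma on log2(RPKM + 1) 78, and leaving out libraries 17 to 545 (20, 55, 61 and 17 without WT replicate 3 and KO replicates 1, 2 and 3, and 17 without replicate 2 of every group). Members called with LPS between genotypes were 0, or 1 (Zc3h12d) by total counts, without a filter, by DESeq2 and in the range of 0 to 1 without 1 replicate. For the interaction, 24 genes and no member were called without WT replicate 1 in both conditions. With a replicate block, 0 genes were called between untreated genotypes and 47 with LPS, and the block on pairs changed no member's call for LPS or the interaction. Precision is limited by 3 libraries a group: in 9 of 9 members the counts were 70 or more in each library.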
